A study of Mus musculus with 8 samples.

Results

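Interferon-stimulated genes are the genes that a cell switches on when interferon binds its receptors, and their products restrict viruses and intracellular microbes. A list of 54 such genes, named by gene and with no threshold on a measured value, was followed among the 47937 gene IDs of the count tables. The list was chosen with earlier results of these data known, so its counts set beside those of all genes are not an independent test. By role the list holds 4 genes of the IFIT family, 6 of the OAS family, 4 transcription factors, 7 nucleic acid sensors, 4 guanylate-binding proteins (GBP), 5 immunity-related GTPases (IRG), 4 genes of the ISG15 system, 2 TRIM ubiquitin ligases, 3 genes for PARP9, PARP14 and DTX3L, and 15 other effectors. All 54 were found in the tables.

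The cells were bone marrow-derived dendritic cells (BMDCs) grown for 8 days with GM-CSF from C57BL/6J mice, a culture that holds GM-CSF-driven DCs and macrophages side by side. 3xGrk-/- BMDCs came from mice with floxed Grk2 and Grk6, deleted by Vav-iCre, a Cre that acts in blood-forming precursors and so in all cells grown from them, and with Grk3 deleted in the whole animal, while WT controls carried no Cre. GRKs are the kinases that phosphorylate activated G protein-coupled receptors. Cells of each genotype were left unstimulated or were stimulated with 20 ng/ml LPS for 24 h, and 2 libraries of mRNA were sequenced for each of the 4 groups, with 4713305 to 6933358 counts on genes per library. The study's methods describe technical repeats of the RNA isolation, and the labels do not tie the libraries to separate mice or cultures, so the standard errors and p-values measure the spread between these libraries, which may be technical.

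Reads of the targeted genes remained in 3xGrk-/- libraries: without LPS, Grk2 had 1011 and 842 counts against 1676 and 2290 in WT, and Grk6 had 247 and 213 against 447 and 595. With LPS the counts were 1093 and 1133 against 3731 and 4760 for Grk2 and 187 and 201 against 506 and 655 for Grk6. Grk3 had 1514 to 2067 counts in 3xGrk-/- and 1767 to 2868 in WT libraries; counts over whole genes do not show which exons were left, so Grk3 counts do not check its label. Among the DC markers, Zbtb46, the transcription factor of classical DCs, stood at 109 to 160 CPM, counts scaled to a common library size, and the MHC class II gene H2-Ab1 at 1082 to 3528 CPM in all libraries, while Siglech, which marks plasmacytoid DCs, had at most 0.174 CPM. Library 2 of LPS-stimulated 3xGrk-/- cells held 2.16% of its counts on Gm42418, a gene that overlaps ribosomal RNA, against 0.273% to 0.638% in the other 7.

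Type I interferons bind a receptor of IFNAR1 and IFNAR2, whose kinases JAK1 and TYK2 phosphorylate STAT2 among other factors. STAT2 and IRF9 are parts of the complex ISGF3, which binds the interferon-stimulated response element (ISRE) in promoters, while the GAS element is bound downstream of interferon gamma. LPS binds TLR4 with CD14 and MD-2, and in DCs and macrophages the branch through TRIF and IRF3 leads to interferon beta, which acts back on the same cells.

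Promoter sequences are shown because elements bound downstream of interferon receptors lie in promoters and were not used to list the genes. In the RefSeq promoter table of GRCm38.p6, which gives 250 bases before and 50 after each gene start, 43 of the 54 genes were found, with 51 promoters. The ISRE core, spelled GAAANNGAAA and searched on both strands, was present in 26 of the 51 promoters (51%, 25 genes), against 3.44% of all 32851 promoters of the table. The GAS core, TTCNNNGAA, was in 13 of 51 (25.5%) against 8.3% of all, and an NF-kB site, GGGNNTTTCC, in 1 of 51, that of Gbp5, against 1.63% of all. These are matches of letters and not measured binding.

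From the promoter window nearest the annotated gene start that held an ISRE core, the match nearest the start is printed below for the genes with such a match whose level differed most between LPS-stimulated genotypes, with 8 bases on each side, on the strand of the gene and with the core in capitals. Rsad2, Ifit3, Ifi205 and Ifitm3 had log2 fold changes of 3.07, 2.85, 2.43 and 2.29; Ifit3b has the same 26 letters as Ifit3. This choice was made after the values were seen.
Rsad2: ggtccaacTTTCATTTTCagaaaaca
Ifit3: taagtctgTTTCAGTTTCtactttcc
Ifi205: accccattTTTCACTTTCtcagttac
Ifitm3: aaattcagGAAAAGGAAActtctgag

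The same is shown for the genes with a match whose level differed least or was lower in 3xGrk-/-, namely Gbp5 (0.13), Oas3 (0.05), Eif2ak2 (-0.04), Trim30a (-0.13) and Stat2 (-0.17). The Gbp5 window starts from a RefSeq start 2956 bases from the annotated one; for the other genes printed the distance is at most 61 bases.
Gbp5: ttgtgtagTTTCAATTTCagtttaga
Oas3: agggaggaGAAAACGAAAgtgaaggg
Eif2ak2: tccgccggGAAAACGAAAcagaagag
Trim30a: ttctttagTTTCTTTTTCtcagttcc
Stat2: caccctggTTTCAGTTTCctttccct

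Stat2 and Ifit3, a pair picked after the values were seen, share the 10 letters of the core. Their log2 fold changes between LPS-stimulated genotypes were -0.17 and 2.85. The median log2 fold change with LPS was 0.85 over the 25 genes with an ISRE core and 0.39 over the 18 without, and the ranges, -0.17 to 3.07 and -0.09 to 3.15, overlapped almost in full. Without LPS the medians were 0.08 with (24 genes tested) and 0.16 without the core, and for the LPS response they were 2.115 and 2.105 in WT and 2.68 and 2.86 in 3xGrk-/-. Isg20 had the largest log2 fold change between LPS-stimulated genotypes among the genes with a promoter in the table. It had no ISRE core in any of its 3 windows and a GAS core (capitals) in the window at chr7:78913174-78913473 of the plus strand.
Isg20: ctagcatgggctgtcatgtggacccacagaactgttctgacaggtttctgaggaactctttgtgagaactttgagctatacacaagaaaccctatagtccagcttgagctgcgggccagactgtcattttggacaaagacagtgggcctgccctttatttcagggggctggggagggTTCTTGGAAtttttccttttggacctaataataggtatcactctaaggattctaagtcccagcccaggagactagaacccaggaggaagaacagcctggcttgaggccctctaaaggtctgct

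The level of the whole group followed LPS and genotype. Summed over the 54 genes, the level was 3764 and 3771 CPM in unstimulated WT and 4091 and 4115 CPM in unstimulated 3xGrk-/- libraries. With LPS it was 13760 CPM in each WT library and 22520 and 22490 CPM in 3xGrk-/-, or 1.32% and 1.31% of all counts in WT against 2.04% and 2% in 3xGrk-/-. The genotypes did not overlap at either stimulation, and the gap between them was far wider with LPS. In bulk RNA, fewer cells that express a gene and less RNA of it per cell cannot be told apart.

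**Figure D1:**
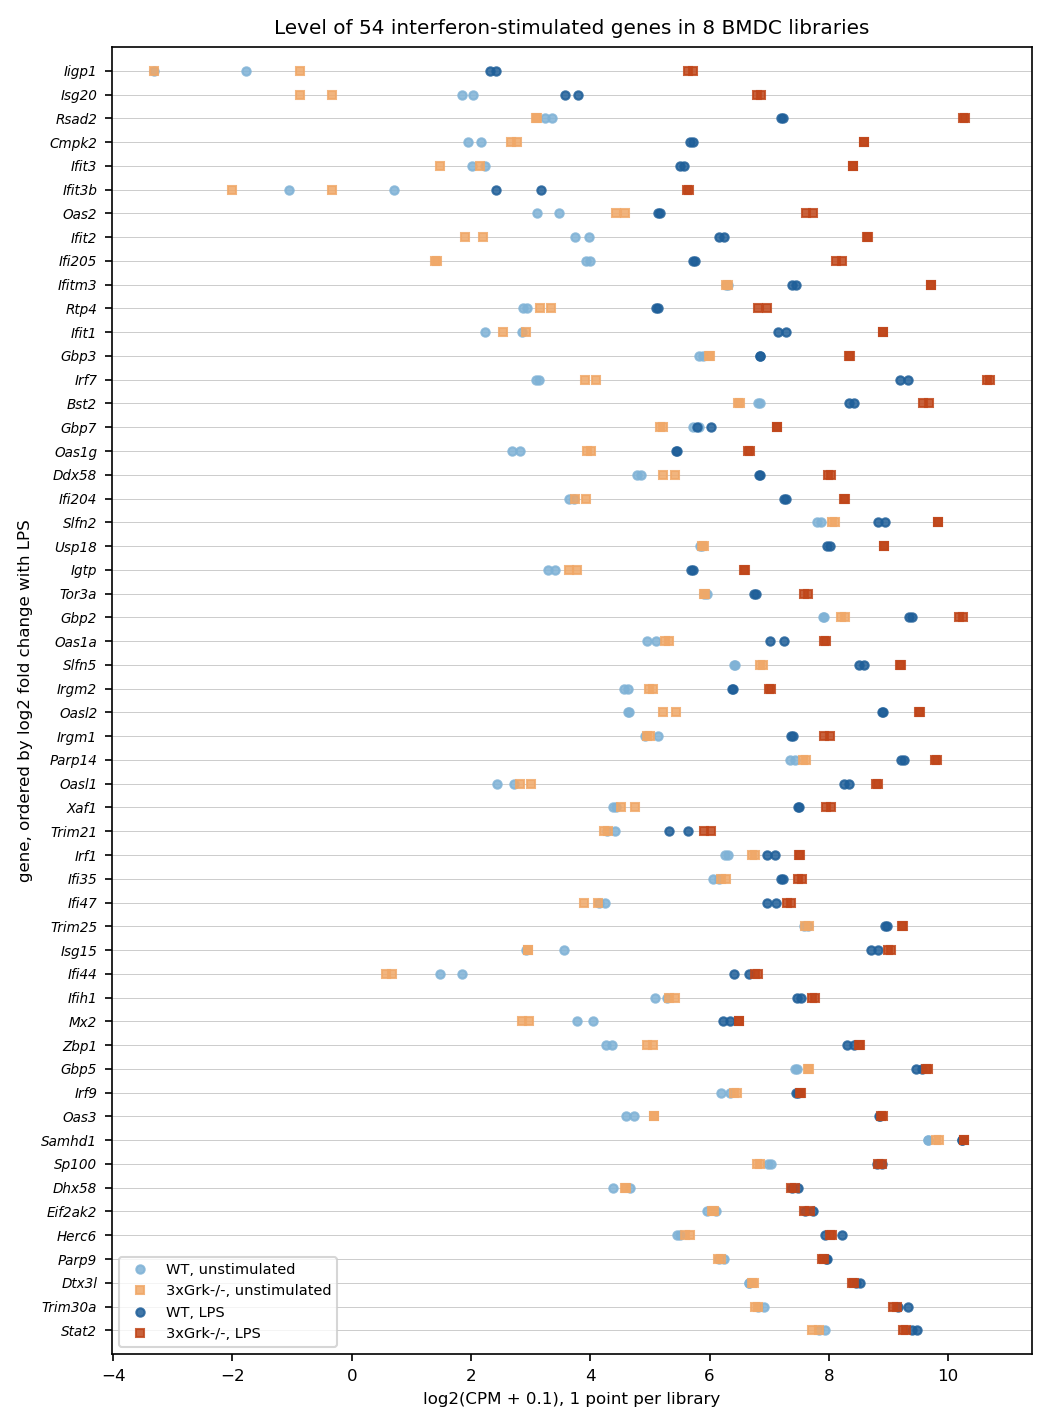
Level of each of the 54 genes as log2(CPM + 0.1), 1 point per library, in rows ordered by the log2 fold change between LPS-stimulated genotypes. At the top, Isg20, Rsad2 and Cmpk2 are far higher in LPS-stimulated 3xGrk-/- libraries than in any other, and Isg20 is lowest in unstimulated 3xGrk-/-; at the bottom, the LPS-stimulated libraries of the genotypes lie together.

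Per kilobase of exon, so that genes can be compared with each other, Isg15, the ubiquitin-like modifier, was the most abundant of the 54 in LPS-stimulated WT BMDCs at 573.9 CPM per kb, followed by Bst2 (368.5) and Slfn2 (284.3). In LPS-stimulated 3xGrk-/- BMDCs the order was Ifitm3 (1233 CPM per kb), Bst2 (877.5) and Isg15 (686.9). Ifitm3, a membrane protein that blocks the fusion of viruses with the cell, thus moved from rank 5 to rank 1. By the mean over the 4 groups, which the LPS-stimulated groups dominate, the highest of their families were Ifit1, Oasl1, Irf7, Zbp1, Gbp2, Ifi47, Isg15, Trim30a, Parp14 and Ifitm3. The order within a family differed between groups: in unstimulated WT, Oas1a (17.3 CPM per kb) stood above Oasl1 (2.27), Stat2 (39.7) above Irf7 (2.26) and Trim25 (34.2) above Isg15 (12.6), and in LPS-stimulated 3xGrk-/- Ifit3 (193.2) stood above Ifit1 (180.1).

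In WT BMDCs 53 of the 54 genes rose with LPS at an adjusted p under 0.05, the threshold for every call (the quasi-likelihood test of edgeR, adjusted over all genes by the method of Benjamini and Hochberg), where 29.5% of all 12541 genes tested rose. Their median log2 fold change was 2.13, against -0.01 for all genes, and the range ran from 0.13 for Gbp7, which was not called, to 6.16 for Irf7. In 3xGrk-/- BMDCs 54 of 54 rose, where 28% of all genes did, with a median of 2.85 and a range from 0.44 for Samhd1 to 7.61 for Isg20. The response was the larger in 3xGrk-/- for 40 of the 54 genes and the smaller for 14; over all 12541 genes it was the larger for 6335 and the smaller for 6206. Unstimulated and stimulated libraries were deposited as separate tables, so stimulation and table cannot be told apart in these responses.

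Irf7, the transcription factor that amplifies interferon production, had the largest LPS response of the 54 in WT, at 6.16 against a median of 2.13. Its level was 8.41 and 8.69 CPM in unstimulated WT, 582 and 643 CPM in LPS-stimulated WT, 15 and 17 CPM in unstimulated 3xGrk-/- and 1670 and 1615 CPM in LPS-stimulated 3xGrk-/- libraries. No library of a group overlapped those of another group. Between WT libraries with and without LPS, 9810 of all 12541 genes tested did not overlap either.

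**Figure D2:**
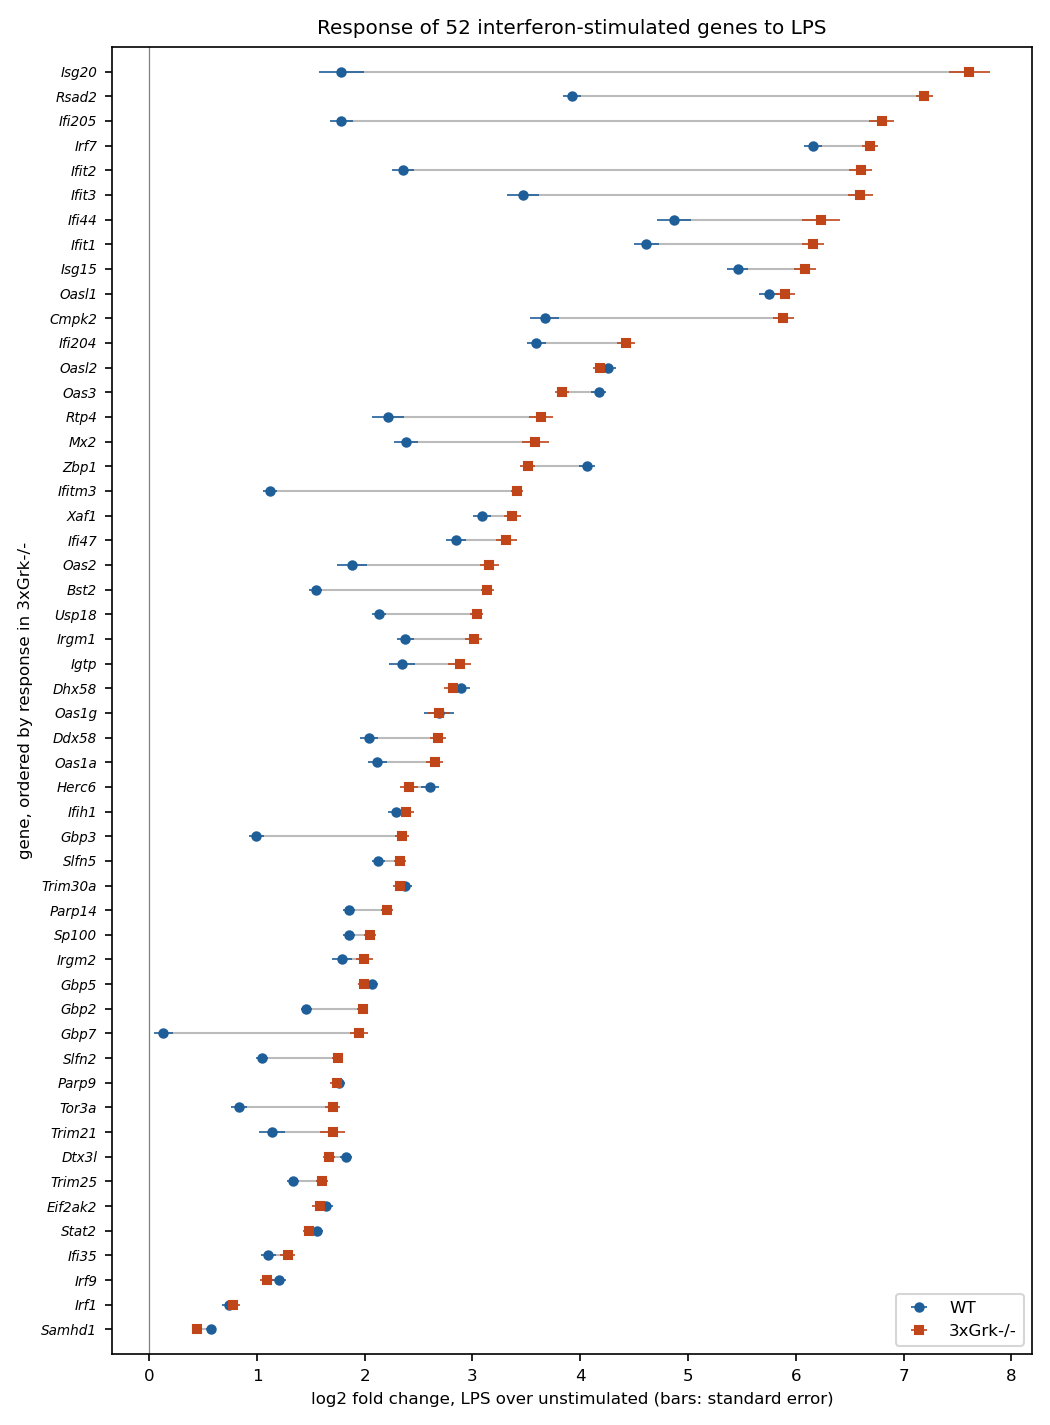
Log2 fold change of LPS over unstimulated BMDCs for the 52 genes that could be tested in unstimulated cells, in WT (circles) and 3xGrk-/- (squares), with standard errors, ordered by the response of 3xGrk-/-. Isg20, Rsad2, Ifi205, Ifit2 and Ifit3 show the widest gaps, 3xGrk-/- being the larger; for Zbp1 and Oas3 the WT response is the larger.

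Without LPS, the genotypes differed in both directions. Of 52 genes tested, 18 were higher in 3xGrk-/- BMDCs, 8 were lower and 26 were not called, where 22.1% of all 12000 genes tested were higher and 22.7% lower. The median log2 fold change was 0.14, against -0.00 over all genes, and the range was -2.68 to 1.24. Iigp1 and Ifit3b had too few counts to be tested. The share called in either direction, 50%, was close to the 44.7% of all genes.

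The OAS family is named for enzymes that make oligoadenylates which activate RNase L. Without LPS 5 of its 6 genes were higher in 3xGrk-/-, against 22.1% of all genes. Oas2 stood at 11.1 and 8.55 CPM in WT and 23.9 and 21.5 CPM in 3xGrk-/- libraries, a log2 fold change of 1.24 ± 0.16 (SE, n = 2 libraries per genotype, as for every fold change below; adjusted p = 3.87e-14 in edgeR's test). Oas1g rose by 1.22 ± 0.19 and Oasl2 by 0.69 ± 0.11. Of Oas1g, 45.7% of the 50-base stretches also occur in other genes, mainly Oas1a, so the split of reads between these genes is uncertain.

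Irf7 was 0.89 ± 0.18 higher without LPS (adjusted p = 2.02e-06), and Irf1, a factor induced by interferons, 0.45 ± 0.07 higher (adjusted p = 1.6e-10, edgeR). Irf9, the DNA-binding part of ISGF3, had 80.8 and 73 CPM in WT and 85.4 and 87.9 CPM in 3xGrk-/- (log2 fold change 0.18 ± 0.07, adjusted p = 0.0299 in edgeR's test). Stat2 was not called (-0.10 ± 0.05, adjusted p = 0.0681, edgeR). Zbp1, a sensor of Z-form nucleic acids, was higher by 0.70 ± 0.12, and Cmpk2, a nucleotide kinase of mitochondria, by 0.68 ± 0.26.

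Of the 8 genes that were lower without LPS, 4 fell by at least 1 on the log2 scale, and 2 of the 18 that were higher rose by as much; of all genes tested, 7.22% were called lower and 4.82% higher by at least 1. Isg20, an exonuclease that degrades RNA, was at 4.01 and 3.50 CPM in WT and at 0.449 and 0.695 CPM in 3xGrk-/- libraries, which rests on 3 and 4 counts in 3xGrk-/- against 21 and 25 in WT. Its log2 fold change was -2.68 ± 0.48 (adjusted p = 9.45e-08, edgeR). Ifi205, of the family of interferon-inducible DNA-binding proteins, had 15.1 and 15.8 CPM in WT and 2.54 and 2.60 CPM in 3xGrk-/-, a log2 fold change of -2.58 ± 0.23 (adjusted p = 4.46e-27, edgeR).

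Ifit2, whose family binds viral RNA, had 15.7 and 13.3 CPM in WT against 4.49 and 3.65 CPM in 3xGrk-/- without LPS (-1.80 ± 0.21, adjusted p = 3.96e-16 in edgeR's test). Ifi44 fell by 1.11 ± 0.40, Mx2, a dynamin-like GTPase, by 0.99 ± 0.18 and Gbp7 by 0.59 ± 0.09 on the log2 scale, and Sp100 by 0.18 ± 0.06. Bst2, tetherin, which holds budding virus at the cell surface, fell by 0.34 ± 0.06, from 112.7 and 115.3 CPM in WT to 88.9 and 91.2 CPM in 3xGrk-/-. The other genes of the IFIT family and the ISG15 system were not called.

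When 1 library was left out, no call without LPS turned around, and 21 of 26 held whichever library it was. Each of these fits kept 1 library of a genotype, so its spread came from the libraries of the other genotype only. Leaving out WT replicate 1 ended the call of Sp100. Leaving out WT replicate 2 ended those of Oas1a, Irf9, Cmpk2 and Ifi44; 3xGrk-/- replicate 1 those of these 4 and Sp100; and 3xGrk-/- replicate 2 those of Oas1a, Irf9 and Ifi44. The adjusted p of the lost calls lay between 0.0574 and 0.441 in edgeR's test. DESeq2 did not call these 5 genes, Oas3 or Irgm2.

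With LPS, most of the genes were higher. Of 54 genes tested, 42 were higher in 3xGrk-/- BMDCs, 1 was lower and 11 were not called, where 24.7% of all 11830 genes tested were higher and 24% lower. The median log2 fold change was 0.62, against -0.01 over all genes, and 18 of the 54 were higher by at least 1, against 10.3% of all genes. Summed macrophage markers differed the same way, at 406.8 and 412.9 CPM in WT and 2787 and 2847 CPM in 3xGrk-/- libraries, and their part in these differences was not tested.

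**Figure D3:**
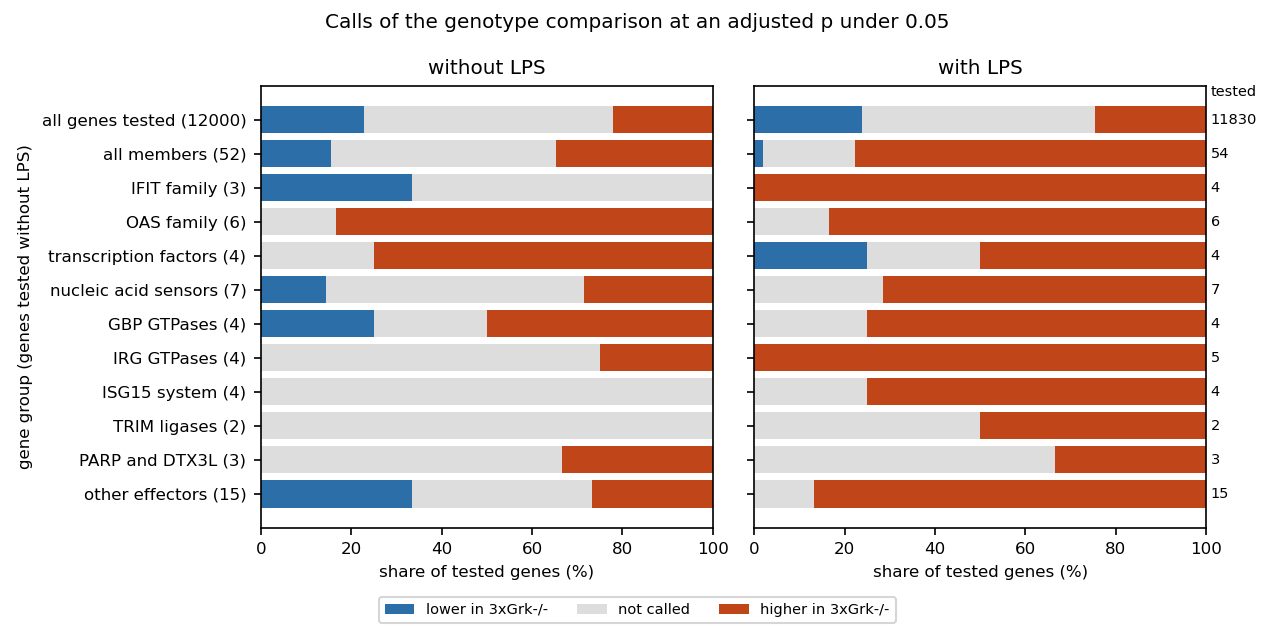
Share of tested genes, in percent, that were called lower (blue), not called (grey) or called higher (red) in 3xGrk-/-, without LPS (left) and with LPS (right), for all genes, for all 54 listed genes and for each role; numbers tested stand beside the bars. With LPS all 4 IFIT and all 5 IRG genes are red, while all genes tested split about evenly.

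In the IFIT family 4 of 4 genes were higher in 3xGrk-/- with LPS, against 24.7% of all genes. Their median log2 fold change, 2.61, was the largest of the roles. Ifit3 had 45.5 and 47.7 CPM in WT and 337.0 and 337.2 CPM in 3xGrk-/- libraries, a log2 fold change of 2.85 ± 0.07 (adjusted p = 6.24e-18, edgeR). Ifit2 was at 76 and 71.2 against 398 and 401 CPM (2.44 ± 0.07) and Ifit1 at 155 and 142.5 against 478.3 and 478.5 CPM (1.69 ± 0.07; adjusted p = 5.67e-15 in edgeR's test). Ifit3b had 5.26 and 8.97 CPM in WT and 50.5 and 49.3 CPM in 3xGrk-/-. Ifit3 and Ifit3b share 51.2% of the 50-base stretches of Ifit3, so their split is uncertain, and the 4 genes lie beside each other on chromosome 19.

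Of the GTPases that act on the vacuoles of intracellular microbes, 5 of 5 IRG genes were higher in 3xGrk-/- with LPS, against 24.7% of all genes. Iigp1, on the log2 scale the most changed of the 54 with LPS, had 4.90 and 5.26 CPM in WT and 52.5 and 49.6 CPM in 3xGrk-/- (3.32 ± 0.15, adjusted p = 1.17e-13, edgeR). Without LPS it had at most 3 counts in any library. The other IRG genes rose by less, from 0.29 for Ifi47 to 0.89 for Igtp. Ifi47, the most abundant of them per length by the mean over groups, had 139 and 125 CPM in WT and 157 and 165 CPM in 3xGrk-/- (0.29 ± 0.07, adjusted p = 0.00318 in edgeR's test).

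Of the GBP genes 3 of 4 were higher in 3xGrk-/- with LPS, against 24.7% of all genes. Gbp3 stood at 115.0 and 115.3 CPM in WT and 322 and 329 CPM in 3xGrk-/- (1.5 ± 0.06), and Gbp7 rose by 1.22 ± 0.09. Gbp2, the most abundant per length, had 672 and 650 against 1163 and 1212 CPM (0.85 ± 0.06, adjusted p = 5.25e-11 in edgeR's test). Gbp5, next to Gbp7 on chromosome 3 with starts 36364 bases apart, was not called, at 758 and 706 CPM in WT and 792 and 807 CPM in 3xGrk-/- (0.13 ± 0.06, adjusted p = 0.0796, edgeR). It was called higher without a filter on low counts (adjusted p = 0.0282), in the fit of all 8 libraries (0.0323) and without WT replicate 1.

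Among the other effectors 13 of 15 were higher with LPS and none was lower, where 24.7% of all genes were higher and 24% lower. Rsad2 encodes viperin, which makes a nucleotide that stops viral polymerases. It had 149 and 146 CPM in WT and 1250 and 1222 CPM in 3xGrk-/- libraries, a log2 fold change of 3.07 ± 0.06 (adjusted p = 1.48e-19, edgeR). Its neighbour Cmpk2, whose start lies 12752 bases away on the opposite strand of chromosome 12, went from 52.4 and 51.1 to 387 and 385 CPM (2.90 ± 0.07). For both genes the libraries of the genotypes did not overlap, as for 8589 of all 11830 genes tested, and the libraries of a genotype lay close together.

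Isg20, the lowest against WT without LPS, had 11.8 and 13.8 CPM in LPS-stimulated WT and 116.5 and 111.5 CPM in LPS-stimulated 3xGrk-/- libraries (3.15 ± 0.11, adjusted p = 1.68e-15 in edgeR's test). Ifitm3 went from 167 and 174 to 838 and 835 CPM (2.29 ± 0.06, adjusted p = 1.22e-17 in edgeR's test), although its levels without LPS were 78.9 and 77.8 CPM in WT and 77.8 and 79.4 CPM in 3xGrk-/-. Bst2 had 322 and 343 CPM in WT and 822 and 763 CPM in 3xGrk-/- (1.25 ± 0.06). Rtp4 rose by 1.77 ± 0.09. Samhd1, which breaks down the building blocks of DNA, was not called (0.04 ± 0.05), nor was Sp100 of the nuclear bodies (0.01 ± 0.06).

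In the OAS family 5 of 6 genes were higher with LPS, against 24.7% of all genes, and Oas3 was not called. Oas1g rose by 1.22 ± 0.09, Oas1a by 0.79 ± 0.07 and Oasl2 by 0.62 ± 0.06. Oas2 had 35.2 and 35.9 CPM in LPS-stimulated WT and 212 and 196 CPM in 3xGrk-/- (2.52 ± 0.08, adjusted p = 4.85e-16, edgeR), while Oas3, its neighbour on chromosome 5 with a start 27808 bases away on the same strand, had 457.8 and 461.2 CPM in WT and 472 and 478 CPM in 3xGrk-/- (0.05 ± 0.06, adjusted p = 0.537, edgeR). Oasl1, which restrains the translation of Irf7 and was the most abundant of the family per length with LPS in both genotypes, was higher by 0.51 ± 0.06, at 452 and 445 against 307 and 324 CPM (adjusted p = 3.84e-07 in edgeR's test).

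Of the transcription factors, Irf7 was higher by 1.42 ± 0.06 with LPS (adjusted p = 1.49e-14) and Irf1 by 0.48 ± 0.07 (adjusted p = 7.66e-06, edgeR), from 124 and 136 CPM to 183 and 182 CPM. Irf9, with 175 and 178 CPM in WT and 186 and 183 CPM in 3xGrk-/-, was not called (0.07 ± 0.07, adjusted p = 0.431, edgeR). Stat2 was the only one of the 54 called lower, at 605 and 628 against 670 and 714 CPM in WT (-0.17 ± 0.06, adjusted p = 0.0211, edgeR). This call was lost with DESeq2 (adjusted p = 0.0869), and in edgeR without a filter on low counts (adjusted p = 0.0516) and with replicate number fitted as a block (adjusted p = 0.063).

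Among the sensors, Ifi205 had 53.9 and 52.9 CPM in LPS-stimulated WT and 278 and 298 CPM in 3xGrk-/- (2.43 ± 0.08), and its relative Ifi204 rose from 152 and 155 to 304 and 310 CPM. Ddx58, which encodes the RNA sensor RIG-I, rose by 1.17 ± 0.07, and Ifih1, which encodes MDA5, by 0.25 ± 0.07, a call that was lost with library size alone (adjusted p = 0.0527). The related Dhx58 (-0.03 ± 0.07) and the kinase gene Eif2ak2, PKR (-0.04 ± 0.07), were not called. Zbp1, the most abundant sensor per length with LPS, had 315 and 341 CPM in WT and 368 and 363 CPM in 3xGrk-/- (0.15 ± 0.06, adjusted p = 0.045 in edgeR's test), a call that was lost without 3 of the 4 libraries in turn (adjusted p = 0.107 to 0.277, edgeR) and was also lost with DESeq2 (adjusted p = 0.116) and with library size alone (adjusted p = 0.429). With replicate number fitted as a block the call of Zbp1 was lost as well (adjusted p = 0.0932, edgeR). Ifi204 and Ifi205 share 20% and 18.6% of their 50-base stretches with other genes, mostly Ifi211.

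Among the genes of ubiquitin-like and ADP-ribose modification, 5 of 9 were higher in 3xGrk-/- with LPS, against 24.7% of all genes. Isg15 had 416 and 451 CPM in LPS-stimulated WT and 529 and 510 CPM in 3xGrk-/- (0.26 ± 0.06, adjusted p = 0.00127 in edgeR's test), while Usp18, which removes ISG15 and restrains the interferon receptor, went from 249 and 258 to 486 and 484 CPM (0.94 ± 0.06). Trim25 (0.28 ± 0.06) and Trim21 (0.49 ± 0.11) rose; Herc6 (-0.05 ± 0.08) and Trim30a (-0.13 ± 0.06), the more abundant of the listed TRIM ligases per length, were not called. Parp14 was at 614 and 594 CPM in WT and 882 and 898 CPM in 3xGrk-/- (0.56 ± 0.06, adjusted p = 4.02e-08 in edgeR's test). Parp9 (-0.06 ± 0.06) and Dtx3l (-0.09 ± 0.06), which encode partners in one complex and start 681 bases apart on opposite strands, were not called; their exons share 458 bases, so their reads depend on the strand setting of the counting.

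No call with LPS turned around when 1 library was left out, and 35 of 43 held whichever library it was. Here too each fit kept 1 library of a genotype and took its spread from the other genotype only. Leaving out WT replicate 1 ended the call of Zbp1, and WT replicate 2 those of Stat2, Mx2 and Ifi44. Leaving out 3xGrk-/- replicate 1 ended those of Stat2, Zbp1, Isg15, Mx2 and Ifi44, and 3xGrk-/- replicate 2, the library rich in Gm42418, those of Stat2, Ifih1, Zbp1, Ifi47, Mx2, Ifi44 and Ifi35. The adjusted p of the lost calls lay between 0.053 and 0.332 in edgeR's test, and 36 to 42 genes were still called higher. The calls of 11 genes, Iigp1, Isg20, Rsad2, Cmpk2, Ifit3, Ifit3b, Oas2, Ifit2, Ifi205, Ifitm3 and Rtp4, held under every alternative tried.

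Whether the effect of genotype itself differed between unstimulated and LPS-stimulated BMDCs was tested as an interaction in a fit of all 8 libraries. For 31 of the 54 genes the effect was higher with LPS and for 2 it was lower, where 16.5% of 12541 genes were higher and 16% lower; the median difference was 0.53 on the log2 scale, against 0.01 over all genes. Isg20 (5.83 ± 0.43, adjusted p = 9.62e-12), Ifi205 (5.01 ± 0.20, adjusted p = 3.38e-17) and Ifit2 (4.24 ± 0.19, adjusted p = 2.85e-16) differed most in edgeR's test, then Ifit3b (4.12 ± 0.83), Rsad2 (3.27 ± 0.16) and Ifit3 (3.13 ± 0.29). Ifit3b had 1 to 11 counts in the unstimulated libraries, and its call was lost without WT unstimulated replicate 2 (adjusted p = 0.21, edgeR).

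Of the 54 genes, 7 were called lower without LPS and higher with LPS, namely Isg20, Ifi205, Ifit2, Ifi44, Mx2, Gbp7 and Bst2, and 14 were called higher both times. Of the listed genes 52 were tested both times; over all 11350 genes tested both times, 2.39% and 12.4% were in these classes. For Mx2 and Ifi44 the call with LPS was small (0.21 ± 0.08 and 0.25 ± 0.09) and depended on the libraries as given above. Both calls were likewise lost with DESeq2 (adjusted p = 0.232 for Mx2 and 0.13 for Ifi44) and with library size alone (0.242 and 0.128). That of Mx2 was also lost with replicate number fitted as a block (adjusted p = 0.0649, edgeR). A further 19 were called higher with LPS and not called without, as were 9.03% of all genes, among them Rsad2, Ifit3, Ifitm3 and Gbp3, and for those 4 the difference between stimulations was called.

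The lower interactions were those of Zbp1 (-0.55 ± 0.12, adjusted p = 0.000539) and Oas3 (-0.34 ± 0.10, adjusted p = 0.0121, edgeR), both higher in 3xGrk-/- without LPS and close to WT with it. Oas1g had a log2 fold change of 1.22 without and 1.22 with LPS, with a difference of -0.00 ± 0.20 (adjusted p = 0.998, edgeR). The call of Oas3 was lost without WT unstimulated replicate 1 and without 3xGrk-/- unstimulated replicate 1 (adjusted p = 0.0504 to 0.112 in edgeR's test). DESeq2 did not call Oas3 (adjusted p = 0.0712), Igtp (0.164), Ifi47 (0.115) or Trim21 (0.132). Calls of Irf7, Igtp, Ifi47, Isg15, Ifi44, Trim21 and Trim25 were each lost without at least 1 library, and 24 of 33 held whichever was left out.

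**Figure D4:**
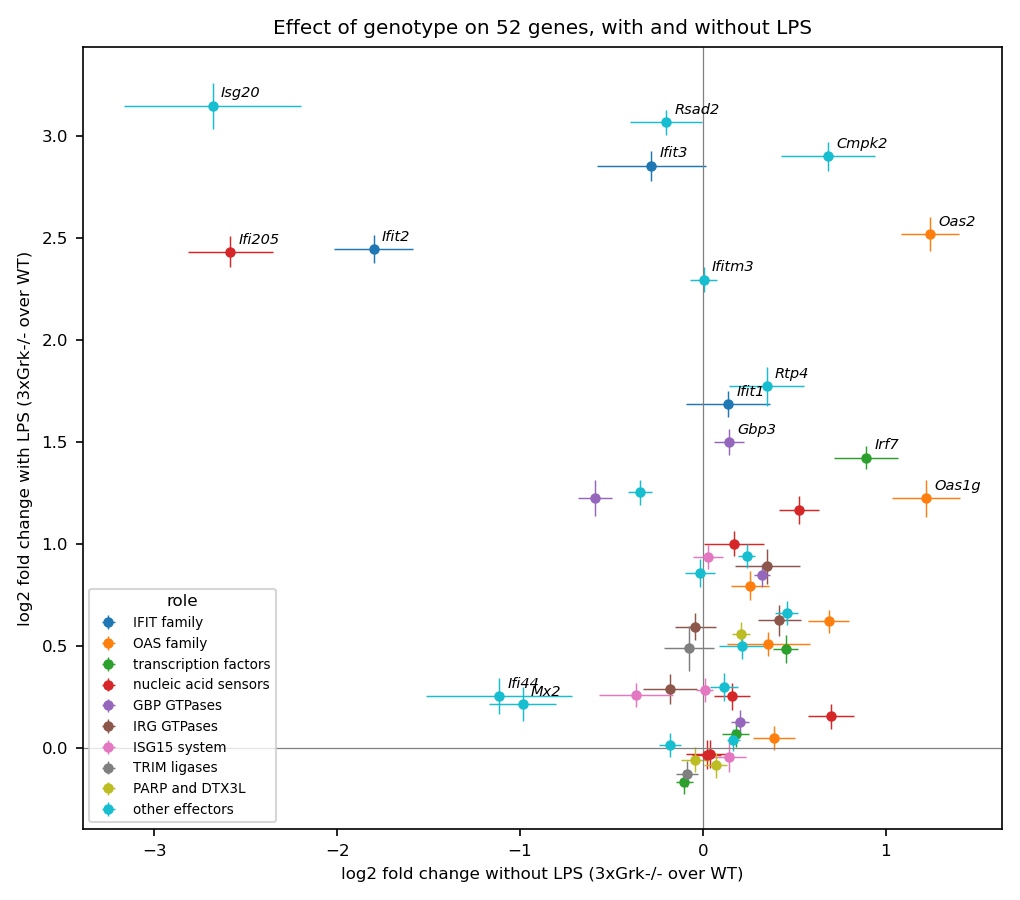
Log2 fold change of 3xGrk-/- over WT without LPS (horizontal axis) and with LPS (vertical axis) for the 52 genes tested in both, coloured by role, with standard errors. Isg20, Ifi205 and Ifit2 lie at the upper left, lower without and higher with LPS; Oas2, Oas1g, Irf7 and Cmpk2 at the upper right; Rsad2, Ifit3 and Ifitm3 near 0 without LPS and high with it.

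The interferons themselves were barely detected. Of 21 interferon genes looked up, 19 had no count in any library, and Ifna4 had 1 count. Ifnb1, interferon beta, had 0 counts in all 4 WT libraries, 1 and 0 in unstimulated 3xGrk-/- and 5 and 12 in LPS-stimulated 3xGrk-/- libraries, too few for the test. A count of 0 allows up to 3 counts in a library, so lower levels were not detectable at this depth. Sequence shared between the interferon genes was not checked, and LPS was followed at 24 h only.

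Of 9 genes for interferon receptors and their kinases, 4 were called higher and 3 lower in 3xGrk-/- with LPS (all genes: 24.7% and 24%), and 5 and 3 without (all genes: 22.1% and 22.7%). Ifnar2 was higher by 1.59 ± 0.09 with LPS (41.2 and 51.7 against 136 and 145 CPM), and Ifnar1 by 0.45 ± 0.07. Ifnlr1, of the receptor for interferon lambda, was lower by a log2 fold change of -2.89 ± 0.33. Jak2, a kinase of the interferon gamma receptor, was also lower (-0.38 ± 0.06).

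In the pathway that induces interferon, 8 of 18 genes were higher and 3 lower with LPS, and 8 and 4 without; over all genes 24.7% and 24% were higher and lower with LPS, and 22.1% and 22.7% without. The RNA-sensing receptor gene Tlr7 had 5.99 and 4.64 CPM in LPS-stimulated WT and 65.6 and 70 CPM in 3xGrk-/- (3.68 ± 0.15), and was already higher without LPS (2.82 ± 0.16). Tlr3 was lower without LPS (-1.13 ± 0.32) and higher with it (2.76 ± 0.23). Cd14, which hands LPS to TLR4, was higher by 2.51 ± 0.07 with LPS, and Irf3 was not called (0.13 ± 0.11). Of the inhibitors, 2 of 12 tested were higher and 3 lower with LPS, which is near or below the 24.7% and 24% of all genes. Socs3 rose by 1.02 ± 0.06 and the phosphatase gene Ptpn6 fell by 0.78 ± 0.07 on the log2 scale.

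A further 76 interferon-stimulated genes, not among the 54 but also listed with earlier results of these data known, were counted as well. Of 75 tested with LPS, 53 rose and 12 fell in 3xGrk-/- (median log2 fold change 0.63), and of 65 tested without LPS, 19 rose and 22 fell (median -0.11); over all genes 24.7% were higher and 24% lower with LPS, and 22.1% and 22.7% without. Ifi206 (4.18 ± 0.09), Slfn4 (4.04 ± 0.07) and Ifit1bl1 (4.03 ± 0.09) rose most with LPS. The chemokine gene Cxcl10 was lower without LPS (-2.32 ± 0.27) and higher with it (2.12 ± 0.09). Mov10 fell by 1.04 ± 0.06 and Mx1 by 0.60 ± 0.05 on the log2 scale with LPS.

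Markers of cell types moved with genotype as well. Over all genes 24.7% were higher and 24% lower with LPS, and 22.1% and 22.7% without. Of 10 macrophage markers, 10 were higher in LPS-stimulated 3xGrk-/- BMDCs at the summed levels given above; without LPS 5 were higher and 4 lower, at 1045 and 1018 against 1555 and 1500 CPM. Of 10 DC markers, 8 were lower with LPS (9233 and 9883 against 7973 and 7814 CPM) and 7 without (14220 and 14190 against 7142 and 7015 CPM). The other DC markers were higher in 3xGrk-/-: Itgax (2.34 ± 0.07 on the log2 scale) and Flt3 (1.35 ± 0.11) with LPS, and Flt3, Itgax and Ccr7 without. Eosinophil markers were lower at both stimulations, at 896 to 966 CPM over all WT libraries and 36.2 to 57.6 CPM over all 3xGrk-/- libraries, with 5 of 5 called with LPS and 4 of 5 without.

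Of 8 neutrophil markers 6 were lower with LPS and 5 without, against 24% and 22.7% of all genes. With LPS they summed to 335.1 and 391.4 CPM in WT and 185.6 and 202.2 CPM in 3xGrk-/-. Without LPS the sums were 742.4 and 698.4 CPM in WT and 532.2 and 515.2 CPM in 3xGrk-/-. Lymphocyte markers summed to at most 5.16 CPM in any library. Stromal markers summed to 8.89 and 4.80 CPM in LPS-stimulated WT and 140.7 and 130.8 CPM in LPS-stimulated 3xGrk-/-, most of it Dcn, against at most 2.80 CPM without LPS. Of 7 plasmacytoid DC markers, the defining genes Siglech, Ccr9 and Klk1 were at or near 0 in all libraries, and the summed level, mostly of Tcf4 and Runx2, was 202 to 203 CPM in 3xGrk-/- and 218 to 233 CPM in WT with LPS. The part of these shifts in the levels of the interferon-stimulated genes was not tested.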

How the data were processed

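RNA-seq of WT and 3xGrk-/- BMDCs, unstimulated or with LPS, was analysed in 8 libraries, 2 per group; genotype, stimulation and replicate came from the labels, and dose, time and culture from the study's methods. The authors aligned reads to mm10 (GRCm38) with STAR and deposited raw counts per gene from featureCounts; the annotation release and the strand setting are not given in the sources used here. Gene names, positions and exon lengths were those of GENCODE M21 on GRCm38, and 0.0847% of counts lay on IDs without a name. Libraries held 4713305 to 6933358 counts, which limits the precision for genes of few counts.

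Each table of 4 libraries was fitted with edgeR 4.0.16 in R 4.3.3 (TMM, filterByExpr, glmQLFit, glmQLFTest, Benjamini-Hochberg adjusted p under 0.05); the interaction and the LPS responses came from a fit of all 8. SE is the log2 fold change without prior count over the square root of F, and CPM use TMM factors of all 8 libraries. An exact permutation test of 2 against 2 libraries cannot go below p = 0.333, so none is given for single genes. Alternatives were DESeq2 1.42.0, other scaling and filters, a minimum fold change, fixed spreads, a replicate block, a fit of all libraries and each library left out. With a library left out, its group gave no spread of its own, which came from the other groups of the fit. Shared sequence was counted as 50-base stretches of exons, and promoters came from RefSeq (GRCm38.p6).

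The listed genes, the other lists and the roles were chosen with earlier results of these data known. Any listed gene could be named; full values go to up to 6 called genes with the largest change in each direction in each genotype comparison and the interaction, to the most abundant of each role per length, and to Irf1, Irf7, Irf9 and Stat2. Some results are not reported here.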

Additional observations from a re-analysis of the deposited data

Results flagged for a closer look

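In 33 of the 54 genes the effect of genotype differed between LPS-stimulated and unstimulated BMDCs, by the interaction test in edgeR, against 32.5% of all 12541 genes tested. Values are the log2 fold change of 3xGrk-/- over WT with LPS minus that without, and each test rests on 2 libraries per group. The difference was higher with LPS by over 1 for 16 genes: Isg20 5.83, Ifi205 5.01, Ifit2 4.24, Ifit3b 4.12, Rsad2 3.27, Ifit3 3.13, Ifitm3 2.29, Cmpk2 2.22, Gbp7 1.81, Bst2 1.59, Ifit1 1.55, Rtp4 1.42, Ifi44 1.37, Gbp3 1.35, Oas2 1.28 and Mx2 1.20.

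It was higher by less for Usp18 0.91, Tor3a 0.87, Ifi204 0.83, Slfn2 0.70, Ddx58 0.64, Irgm1 0.63, Isg15 0.62, Trim21 0.56, Oas1a 0.54, Igtp 0.53, Irf7 0.53, Gbp2 0.52, Ifi47 0.47, Parp14 0.35 and Trim25 0.27. It was lower for Oas3 (-0.34) and Zbp1 (-0.55). The calls of Oas3, Trim21, Igtp and Ifi47 were lost with DESeq2 and without at least 1 library, and those of Ifit3b, Irf7, Isg15, Ifi44 and Trim25 without at least 1 library. Ifit3b rests on 1 to 11 counts in the unstimulated libraries.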

How the results depend on the processing

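No call of the 54 genes turned around under any alternative; 53 values called neither as reported nor under the alternative changed sign, between -0.346 and 0.11. Called higher and lower were 18 and 8 genes without LPS, 42 and 1 with LPS, and 31 and 2 in the interaction. With a log2 fold change of at least 1 these were 2 and 4, 18 and 0, and 16 and 0. At a fixed biological coefficient of variation of 0.1, 8 were higher without LPS and 0 lower with LPS or in the interaction; at 0.4 the counts were 0 and 2, 11 and 0, and 5 and 0. The libraries' own common value was 0.0306 without and 0.0573 with LPS. The count of 1 lower gene with LPS, Stat2, became 0 with DESeq2, without a filter and with the replicate block, and 3 (Stat2, Trim30a and Dtx3l) when only library size was used; DESeq2 left 1 lower in the interaction, Zbp1. With single libraries left out, calls ranged from 15 to 18 and 6 to 9 without LPS, 36 to 42 and 0 to 2 with LPS, 25 to 32 and 1 to 3 in the interaction. The LPS responses, 53 and 54 genes higher, moved by under 1.5 times in all alternatives.

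Over all genes, counts higher and lower moved most from 2647 and 2722 without LPS, 2919 and 2835 with LPS and 2067 and 2003 in the interaction: with DESeq2 to 1482 and 1346, 1991 and 1674, and 1221 and 1236, with a coefficient of 0.1 to 1300 and 1605, and 2314 and 2044, and 1287 and 874, with 0.4 to 195 and 253, 569 and 213, and 61 and 11, and with a log2 fold change of at least 1 to 578 and 866, 1223 and 761, and 947 and 428. In the LPS responses the counts went from 3702 and 3859 in WT and 3510 and 3435 in 3xGrk-/- to 1091 and 1609 and 1216 and 1157 with that fold change, 451 and 659 and 552 and 298 at 0.4, 2443 and 5420 and 2245 and 5200 with library size alone, and 2844 and 2657 and 2493 and 2271 with DESeq2. Scaling by library size alone shifted the median of all genes by -0.215 and -0.218 in the LPS responses of WT and 3xGrk-/-, and the share of calls that were higher from 49% to 31.1% and from 50.5% to 30.2%, from 49.3% to 35.8% without LPS and from 50.7% to 40.9% with LPS between genotypes; changes are to be read against that shift. Same-numbered libraries did not deviate together (correlations -0.0299 to 0.0435), and with the replicate block 18 and 8, 40 and 0, and 31 and 2 genes were called; the block ended the calls of Stat2, Zbp1 and Mx2 with LPS (adjusted p 0.063 to 0.0932). With 2 libraries per group, low-count genes such as Isg20 and Ifit3b without LPS are the least certain.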
